A study of Saccharomyces cerevisiae with 219 samples.

Results

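These values come from stationary phase budding yeast moved to a higher temperature, and they set the last hours of that course against its first hours. The upshift course held 32 arrays, 2 at each 30 min step from 30 to 480 min. The arrays at 390, 420, 450 and 480 min (8 arrays, the late window) were compared with those at 60, 90, 120 and 150 min (8 arrays, the early window), so the comparison used 16 of the 219 arrays of the series. The windows were chosen by time alone, and no measured value entered the choice.

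The series asked how transcript abundance changes when quiescent yeast is stressed, and used spotted 70-mer oligonucleotide arrays with sample RNA in Cy5 and a common reference in Cy3. The reference was an equal mix of RNA from stationary and exponential cultures. All cells were of a MATα strain in the S288c background that carries mutant alleles of HIS3, LEU2, LYS2, TRP1 and URA3, grown in rich medium with added adenine at 30 °C for 7 days, and no group carried a further mutation. For the upshift the cultures were moved to 39 °C. Samples were randomized within the course for RNA isolation, labelling and hybridization. The array labels give the minutes but not the treatment, which was taken from the series text and the study's account of its upshift. Whether the duplicate arrays came from separate cultures is not stated for this course, so the p-values measure the spread between these arrays.

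Yeast that has used up glucose and then ethanol stops dividing and enters stationary phase, with high transcript levels for stress proteins, small hydrophilic proteins (hydrophilins), peroxisomal fat breakdown and the use of acetate and other poor carbon sources, and low levels for ribosomal proteins. A rise in temperature unfolds proteins, and the factors Hsf1 and Msn2/Msn4 switch on chaperones: Hsp104 takes apart aggregates, Hsp70 (Ssa) and Hsp90 (Hsp82, Hsc82) fold clients, and the small heat shock proteins Hsp26 and Hsp42 hold unfolded chains. In growing cells this heat shock response is usually brief. The comparison here asks which transcripts still changed once the first hours at the higher temperature had passed.

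All levels below are log2 ratios to the reference after the median gene of each array was set to 0, so 0 means a typical gene of that array and not an amount of RNA. An array gave 2767 to 4585 genes with a usable value in the early window and 2308 to 4732 in the late window, with means of 3848 and 3793 (exact two-sided permutation test, p = 0.8827, 8 against 8). Array medians before centring ran from -0.89 to 1.22 early and from -0.55 to 0.82 late, with means of 0.30 and 0.33 (exact permutation test, p = 0.9293). Of 9 stationary phase markers, 8 lay above the array median early and 6 late. The late exceptions were FMP45, which was also below it early, GRE1 and SIP18. All 4 growth markers (HTA1, HTB1, CLN2, RNR1) lay below it in both windows, and the median cytosolic ribosomal protein gene stood at -3.90 early and -4.01 late. HSP104, the disaggregase, stood at a median of -1.22 in 6 arrays of untreated stationary cells from another course, and at 3.02 early and 4.08 late.

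Of 5691 genes on the array, 2819 had enough values to be tested. A gene was called where limma gave an adjusted p below 0.05 and the windows differed 2-fold or more. By this rule 23 genes were higher late (0.816% of those tested) and 76 were lower (2.70%). Without the fold requirement 72 were higher and 151 lower. Genes of stationary phase, peroxisomes, acetate use, hexose uptake and glycolysis were among the falls, and no list had more than 3 rises. The windows did not overlap for 51 of the 76 genes that fell and for 6 of the 23 that rose, against 96 of all 2819 genes tested. Called genes were picked by their difference between windows on these same arrays, so a lack of overlap was favoured in advance. Without centring the array medians, 29 falls and 0 rises passed, and all 29 were among the 76. Leaving out the sparsest array (450 min, replicate 1) gave 83 falls and 23 rises.

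**Figure D1:**
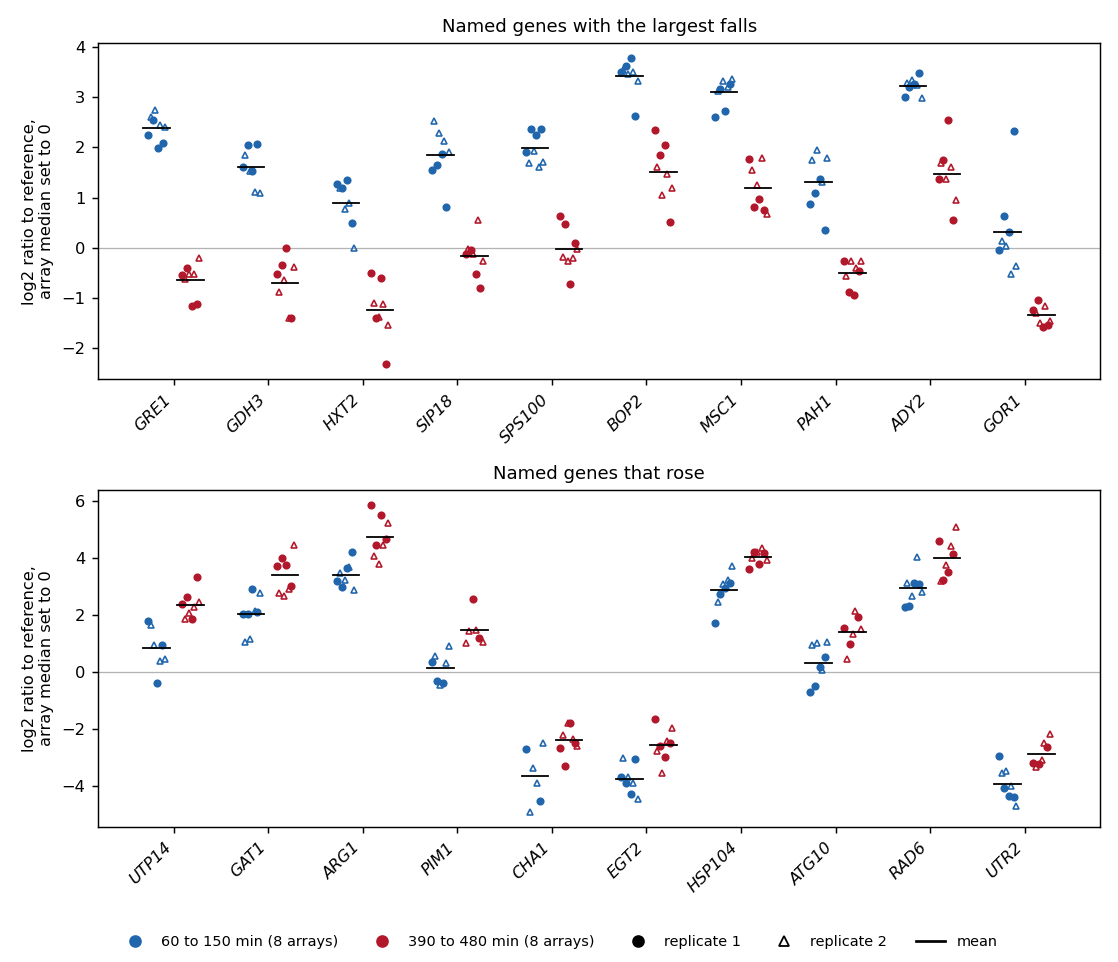
Log2 ratio to the reference (array median set to 0) in each of the 16 arrays, for the 10 named genes with the largest falls (upper) and 10 named genes that rose (lower); blue marks are 60 to 150 min, red marks 390 to 480 min, circles and triangles the 2 replicate labels, in order of time, and bars the means. The upper genes were picked among those with complete, non-overlapping values, so they separate fully by choice (GRE1 from 1.99 or more to -0.20 or less). The lower genes were picked without that rule, and most overlap, so the panels cannot be compared in this respect.

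GRE1, a stress-induced hydrophilin, showed the largest fall. Its 8 early arrays lay between 1.99 and 2.74 (median 2.43) and its 8 late arrays between -1.16 and -0.20 (median -0.54), a difference of -3.02 ± 0.17 (SE), or 8.14-fold (adjusted p = 1.52e-09). Every early array was thus well above the typical gene and every late array below it. SIP18, a second hydrophilin, went from 0.82 to 2.53 early (median 1.89) to -0.80 to 0.54 late (median -0.13), again with no overlap (-2.01 ± 0.23, adjusted p = 1.41e-05). SPS100, a spore wall protein, went from a median of 1.93 (1.60 to 2.38) to -0.10 (-0.71 to 0.62), 4.01-fold lower (adjusted p = 2.77e-06). MSC1, of uncertain function, went from a median of 3.18 (2.61 to 3.35) to 1.11 (0.67 to 1.79), 3.74-fold lower. MSC1 therefore stayed above the typical gene in all 8 late arrays.

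The gene lists were chosen with earlier results of these data known, and some share members, so list shares here and below are descriptive. Of 27 stationary phase markers, 18 were tested and 6 fell (33.3%, against 2.70% of all genes), with none higher and a list median of -0.77 against 0.04 over all genes tested. The other members that fell were SPG1 and SPG5, needed for survival at high temperature in stationary phase, with RGI2, a regulator of respiratory growth. SPG1 went from a median of 3.43 (2.79 to 3.94) to 2.00 (1.39 to 2.10), a difference of -1.52 ± 0.20. RGI2 went from 2.51 (1.85 to 3.17) to 1.30 (0.71 to 1.65), and its windows did not overlap either. SNZ1, a vitamin B6 synthesis gene and a classical marker of stationary phase, differed by -0.75 ± 0.16 (adjusted p = 0.00439), less than 2-fold. Its early arrays lay between 1.83 and 2.33 and its late arrays between 0.83 and 1.79. HSP12, a membrane-associated stress protein, differed by -0.85 ± 0.20 (adjusted p = 0.0124), also below the 2-fold requirement, with medians of 2.76 and 2.07. The fall was thus not shared by the whole list: 12 of the 18 did not meet both criteria, although 17 of the 18 differences lay below 0.

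The peroxisomal list had the lowest median of the 40 lists (-0.83 over 16 tested genes). Of these 16 genes 5 fell (31.2%) and 0 rose. CTA1, the peroxisomal catalase, went from a median of 2.40 (2.14 to 2.68) in 8 early arrays to 0.64 (0.42 to 1.12) in 7 late arrays, a difference of -1.74 ± 0.15 (adjusted p = 1.19e-06). FOX2, the multifunctional enzyme of fatty acid beta-oxidation, went from 1.89 (1.25 to 2.28) to 0.37 (0.05 to 0.80), 2.73-fold lower. The remaining 3 were SPS19, a dienoyl-CoA reductase (-1.39), POX1, the acyl-CoA oxidase of the first step (-1.24), and PEX11, which acts in peroxisome division (-1.21). Enzymes of the pathway and a gene of the organelle itself were therefore both among the falls. The number of falls in the list ran from 1, without centring, to 7 over the alternative analyses.

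Genes for the use of acetate and other non-fermented carbon went the same way for some members and not for others. Of 23 tested, 5 fell (21.7%) and none rose, with a list median of -0.41. ADY2, an acetate transporter, went from a median of 3.25 (2.99 to 3.49) to 1.49 (0.56 to 2.54), a difference of -1.75 ± 0.22 (adjusted p = 3.28e-05). ACS1, acetyl-CoA synthetase, went from 2.36 (1.68 to 3.09) to 0.89 (0.75 to 1.77), and its windows overlapped slightly. ADH2, the glucose-repressed alcohol dehydrogenase, went from 0.06 (-0.45 to 1.52) to -1.42 (-2.14 to -0.85), 3.16-fold lower with no overlap. JEN1, the lactate and pyruvate permease, lay at the limit (2.00-fold lower), and YAT2, a carnitine acetyltransferase, differed by -1.11. PCK1, the key enzyme of gluconeogenesis, had medians of -0.98 and -1.41 and a difference of -0.49 ± 0.26 (adjusted p = 0.301). ICL1, isocitrate lyase, had 2 early values and 1 late value and was not tested. The falls in the list numbered 2 to 6 over the alternatives. GOR1, a glyoxylate reductase outside the list, went from 0.09 to -1.38 (medians). GOR1 had 1 early array far above the others, at 2.34 against -0.52 to 0.63.

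Some genes of hexose uptake and glycolysis fell as well. Of 12 hexose transporter genes tested 4 fell (33.3%), with a list median of -0.69. HXT2, a high-affinity glucose transporter, went from a median of 1.04 (0.00 to 1.35) to -1.25 (-2.32 to -0.51), 4.41-fold lower (adjusted p = 1.99e-05). HXT6 went from -0.09 (-0.49 to 0.34) to -1.64 (-2.13 to -1.29), a difference of -1.53 ± 0.16. HXT3 and HXT7 were the other members (-1.53 and -1.23). HXT6 and HXT7 are nearly identical in sequence and HXT3 is related, so signal on one probe can come from another copy and these 3 were uncertain as separate results.

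Of 19 glycolytic genes tested 3 fell (15.8%), and 17 of the 19 differences lay below 0 (median -0.46). CDC19, the main pyruvate kinase, was already far below the typical gene, at a median of -4.84 (-5.28 to -4.61), and went to -6.34 (-6.82 to -5.50), a difference of -1.39 ± 0.19 (adjusted p = 7.57e-05). PGK1, phosphoglycerate kinase, went from -3.78 to -5.40 (medians), with overlapping windows. The number of falls in the list was 1 without centring and 1 without the replicate 1 arrays. The third gene was TDH2, a glyceraldehyde-3-phosphate dehydrogenase (-1.07). TDH2 sat on 17 probes of the same arrays, which are not replicates, and all 17 gave a lower late mean, by -1.54 to -0.93. The near-identical TDH3 differed by -0.96, so these copies could not be told apart. CDC19, PGK1 and TDH2 thus combined levels far below the reference in both windows with a further decline. The citrate cycle list, by contrast, had a median of 0.11 over 20 tested genes. Its only call was CIT3, a mitochondrial citrate and methylcitrate synthase, with medians of 0.34 and -1.88.

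Of 16 nitrogen genes tested, 3 fell (18.8%, against 2.70% of all genes), 2 rose (12.5%, against 0.816%) and the others were not called. GDH3, a glutamate dehydrogenase used after the glucose is gone, went from a median of 1.57 (1.09 to 2.06) to -0.58 (-1.41 to 0.00), a difference of -2.30 ± 0.22 (adjusted p = 2.68e-06). GLN1, glutamine synthetase, went from -0.66 (-2.95 to 0.17) to -3.28 (-4.16 to -2.38), 5.35-fold lower, and its array values spread widely enough for the windows to overlap. ALT2, an alanine aminotransferase homologue, was the third fall (-1.59). In the other direction GAT1, a GATA transcription activator of nitrogen-repressed genes, went from 2.07 (1.06 to 2.93) to 3.38 (2.67 to 4.46). CHA1, the serine and threonine deaminase, went from -3.64 (-4.90 to -2.50) to -2.43 (-3.30 to -1.79). Both pairs of windows overlapped, in contrast to those of GDH3.

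Several falls came from other pathways. GTT1, a glutathione transferase, had tight values on both sides, 0.83 to 1.21 early and -0.94 to -0.15 late (medians 0.91 and -0.51, adjusted p = 2.77e-06). GTT1, CTA1 and the peroxidase HYR1 were the 3 falls among 34 oxidative stress genes tested (8.82%). Superoxide dismutases SOD1 and SOD2 had differences of -0.25 ± 0.17 and 0.07 ± 0.24, and catalase T (CTT1) of -0.38 ± 0.16 (adjusted p = 0.413, 0.905 and 0.16). PAH1, the phosphatidate phosphatase that directs lipid into storage fat, went from a median of 1.34 (0.36 to 1.95) to -0.44 (-0.94 to -0.26), 3.52-fold lower. BOP2, of unknown function, went from 3.51 (2.62 to 3.78) to 1.53 (0.51 to 2.35). ERG5, a late enzyme of ergosterol synthesis, went from 0.09 to -0.84, and FIT3, a cell wall protein that helps to hold iron carriers, from -0.69 to -1.69 (medians). CTS1, the chitinase that separates daughter cells, went from -3.32 to -4.42.

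Of 37 translation factor genes tested 3 fell, which is 8.11% against 2.70% of all genes. Of 60 ribosome assembly genes 2 fell (3.33%) and 1 rose (1.67%), shares near those over all genes (2.70% and 0.816%). HYP2, encoding the elongation factor eIF5A, went from -2.16 (-2.46 to -1.63) to -3.06 (-3.47 to -2.77). RLI1, which splits ribosomes for reuse, differed by -1.02 ± 0.28, SNU13, a small nucleolar ribonucleoprotein subunit, by -1.07 ± 0.20, and UTP5, of the small subunit processome, by -1.14 ± 0.33. RLI1 was no longer called with the replicate label as a block, and RLI1, HYP2 and, among the rises, CHA1 were not called without the sparsest array. HEF3, a homologue of elongation factor 3, was 2.00-fold lower. None of the 134 cytosolic ribosomal protein genes tested was called, and their median difference was -0.07. At an unadjusted p under 0.05, 611 of all 2819 genes passed.

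The 23 rises were of diverse function, and the cell wall list held the most of any list, with PMT2, UTR2 and EGT2. These were 3 of 46 tested (6.52%, against 0.816% of all genes), and 2 of the 46 fell (4.35%, against 2.70%). PMT2, a protein O-mannosyltransferase of the endoplasmic reticulum, was the only rise with a value in all 16 arrays and no overlap, from a median of -2.69 (-2.97 to -2.10) to -1.65 (-1.89 to -1.25), a difference of 1.03 ± 0.17 (adjusted p = 0.000453). UTP14, a subunit of the small subunit processome, showed the largest rise, from 0.94 (-0.38 to 1.78) to 2.34 (1.88 to 3.32), 2.90-fold. PIM1, the Lon protease of the mitochondrial matrix, went from 0.33 (-0.46 to 0.91) to 1.32 (1.01 to 2.55). UTP14 and PIM1 each had fewer than 16 values, and their windows did not overlap. ARG1, an arginine synthesis enzyme, went from 3.37 (2.88 to 4.23) to 4.57 (3.78 to 5.85), and RAD6, a ubiquitin-conjugating enzyme, from 2.95 (2.27 to 4.05) to 3.96 (3.19 to 5.10). ATG10, which conjugates Atg12 in autophagy, went from 0.35 to 1.51. UTR2, which cross-links chitin in the wall, went from -4.04 to -3.09, and EGT2, a wall protein of daughter cells, from -3.79 to -2.53 (medians). No rise was called in every alternative analysis, against 20 of the 76 falls. None of the 23 was called without the replicate 1 arrays and 1 was called without the replicate 2 arrays, in fits of 4 against 4 arrays. All 23 kept their direction in each replicate alone, with median differences of 1.35 (replicate 1) and 1.0 (replicate 2). The 23 were called on these same arrays, so a kept direction was favoured in advance.

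Most of the heat shock genes examined lay above the array median in both windows, with SSA1 and SSA2 below it, and few were called. Of 14 of these genes (the chaperones among the fixed genes, with HSP30 and without HSP12), 13 differences lay above 0 (range -0.11 to 1.15, median 0.54), and HSP104 alone was called. HSP12, which was left out of the 14, went the other way (-0.85 ± 0.20). HSP104 lay between 1.73 and 3.73 early (median 3.02) and between 3.64 and 4.34 late (median 4.08), a difference of 1.15 ± 0.23, or 2.23-fold (adjusted p = 0.00301). HSP104 was spotted on 17 probes, and each of the 17 gave a higher late mean, by 0.85 to 1.50. The probes read the same RNA on the same arrays, so they are not replicates. Their levels differed, with a median SD between probes of 1.13 log2 units, so the averaged level is uncertain. The windows overlapped slightly, since the highest early array (3.73) exceeded the lowest late one (3.64).

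The Hsp90 genes were higher late by their medians but were not called. HSP82, the inducible form, had early values of 2.48 to 4.96 (median 3.35) and late values of 3.86 to 4.42 (median 4.20), a difference of 0.69 ± 0.28 (adjusted p = 0.14). HSC82, the constitutive form, had medians of 2.08 and 2.33 (0.45 ± 0.23). The 2 genes are close in sequence, and their probes may share signal. Among the Hsp70 genes, SSA4, the strictly heat-induced form, had the widest early values, from 0.32 to 4.55 (median 1.96), against 1.37 to 4.36 late (median 3.17). Its difference of 0.93 ± 0.54 (adjusted p = 0.328) was therefore within the spread. All 17 of its probes were higher late on average, but they were read on the same arrays and are not replicates. The median SD between them was 1.45 log2 units. SSA3 stood at medians of 3.64 and 3.74, SSA1 at -1.47 and -0.78, and SSA2 at -1.48 and -0.82. SSA1 and SSA2 are near-identical copies and were read together.

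Among the small heat shock genes, HSP42 had medians of 5.35 early (4.57 to 6.30) and 6.17 late (5.81 to 7.56), a difference of 0.88 ± 0.28 (adjusted p = 0.0638). HSP26 had medians of 4.80 and 4.76 (-0.11 ± 0.19, adjusted p = 0.775). HSP30, a plasma membrane stress protein, stood at 3.32 and 3.95, and the difference was 0.56 ± 0.19 (adjusted p = 0.0868). In the mitochondrion, the Hsp104 relative HSP78 stood at 4.07 and 4.73, the Hsp70 SSC1 at 2.26 and 2.78, and the chaperonin HSP60 at 1.75 and 2.13. KAR2, the Hsp70 of the endoplasmic reticulum, stood at 3.51 and 4.15 (0.61 ± 0.20, adjusted p = 0.0719). Polyubiquitin (UBI4) differed by 0.09 ± 0.16. HSF1 itself had too few values for a test.

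Along the course the 14 heat shock genes differed more within the early window than within the late one. Between the 60 and the 150 min means, all 14 were higher at the later time, by 0.80 to 2.85 (median 1.19). SSA4 differed most, from 0.62 to 3.47, and HSP104 went from 2.09 to 3.43. Between the 390 and the 480 min means, the same 14 differed by -0.41 to 0.63 (median 0.21). HSP12 differed by 0.30 and 0.72 over the same intervals, but each step started from a time with 1 outlying array, in replicate 1. That array stood at 2.28 at 60 min (other early arrays 2.69 to 3.03) and at 0.76 at 390 min (other late arrays 1.76 to 2.40). The larger late step of HSP12 is therefore uncertain. These steps rest on 2 arrays a time and were not tested.

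**Figure D2:**
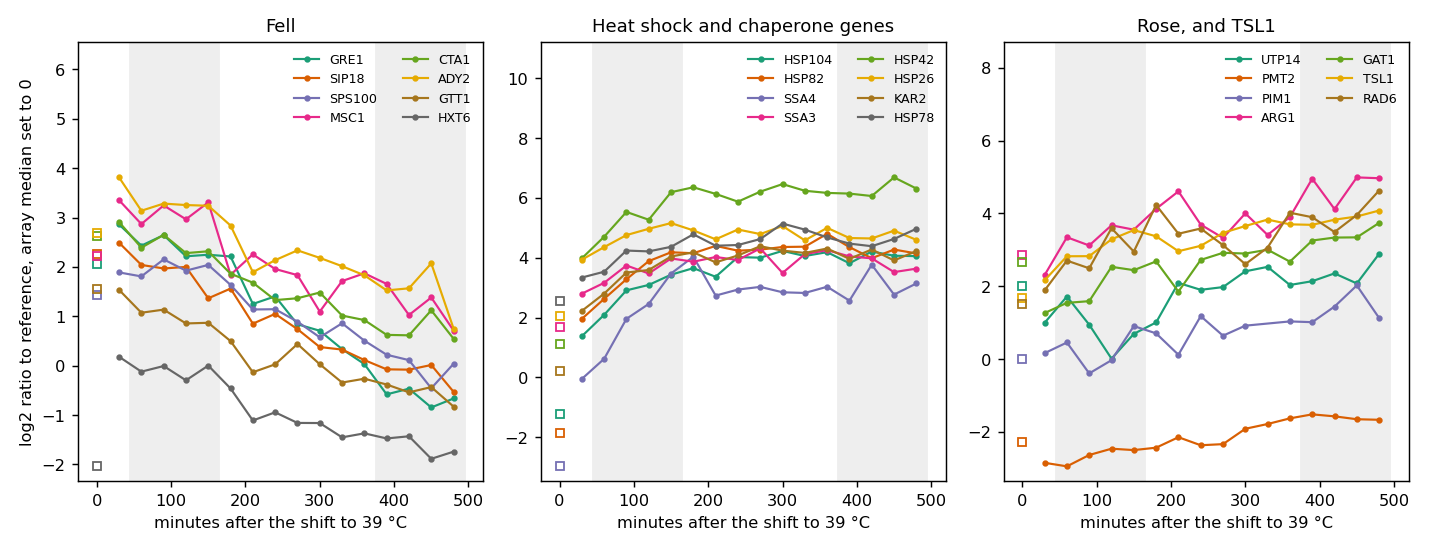
Mean log2 ratio to the reference (array median set to 0) of the arrays at each time from 30 to 480 min, for genes that fell (left), heat shock and chaperone genes (middle) and genes that rose with TSL1 (right); grey bands mark the windows, and open squares at 0 the median of 6 arrays of untreated stationary cells from another course. The heat shock genes differ more between the ends of the early band than between those of the late band (HSP104 1.38 at 30 min, 2.09 at 60 min, 3.43 at 150 min, 3.81 at 390 min, 4.05 at 480 min), whereas the falls run through the middle of the course (GRE1 2.25 at 150 min, -0.58 at 390 min).

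Arrays between the windows, which entered neither, gave intermediate levels for most called genes. For all 76 falls, the mean over the 14 arrays at 180 to 360 min lay between the window means, and it did for 20 of the 23 rises. These genes were picked for a gap between the window means, so an intermediate mean was favoured in advance. The median over the 76 was 1.32 at 150 min, 0.81 at 180 min, 0.54 at 240 min, 0.21 at 300 min, -0.04 at 360 min and -0.60 at 480 min. The median thus held level through the early window and declined over the middle hours. At 30 min, 56 of the 76 stood above their early mean. The counts at 30 min and over the middle hours were made for called genes only, so no share over all genes is given. The median over the 23 rises was 0.16 at 30 min, 0.89 at 150 min, 1.92 at 240 min and 2.22 at 300 min. It then stood at 1.87 at 360 min, 1.70 at 390 min, 1.82 at 420 min, 2.13 at 450 min and 2.44 at 480 min, so most of the late window lay no higher than 300 min.

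Set against the untreated stationary cells (6 arrays of another course, so a description only), the falls as a set began near the starting level and ended below it. The median over the 76 genes was 1.41 in untreated cells, 1.39 early and -0.47 late, and 66 of the 76 lay below their untreated median late. GRE1 stood at 2.05 and SIP18 at 2.27 in untreated cells. Single genes varied, since 46 of the 76 lay above their untreated median early and 10 still did late. HXT6 stood at -2.04 in untreated cells, -0.09 early and -1.64 late. HXT3 (-1.72, -0.35 and -1.76), SNU13 (-2.05, -0.89 and -2.05) and FIT3 (-1.66, -0.69 and -1.69) likewise stood higher early and near the untreated level late. HXT2 was at -0.09, 1.04 and -1.25. For the 23 rises the medians were 0.07, 0.92 and 2.07, and 21 lay above their untreated median late. Falls were picked for a low late window and rises for a high one, so late levels on those sides of the untreated level were favoured in advance. The counts were made for called genes only, without a share over all genes.

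Trehalose protects proteins and membranes in heat. None of the 14 trehalose and glycogen genes tested was called, and their median difference was 0.15. TSL1, a regulatory subunit of the synthase, had medians of 3.01 and 3.88 and a difference of 0.76 ± 0.18 (adjusted p = 0.0122), below the 2-fold requirement. The catalytic subunits TPS1 and TPS2 differed by 0.24 ± 0.15 and 0.02 ± 0.16. Of 31 proteasome genes tested 30 had a difference above 0 (median 0.36), but none was called. The lists of Hsp70 (median 0.39) and Hsp90 genes (0.34), endoplasmic reticulum chaperones (0.44) and mitochondrial chaperones (0.32) lay on the same side, with HSP104 and PIM1 their only calls. The list of small heat shock proteins and hydrophilins lay on the other side, with a median of -0.22, 9 of 13 differences below 0 and GRE1 and SIP18 called lower.

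**Figure D3:**
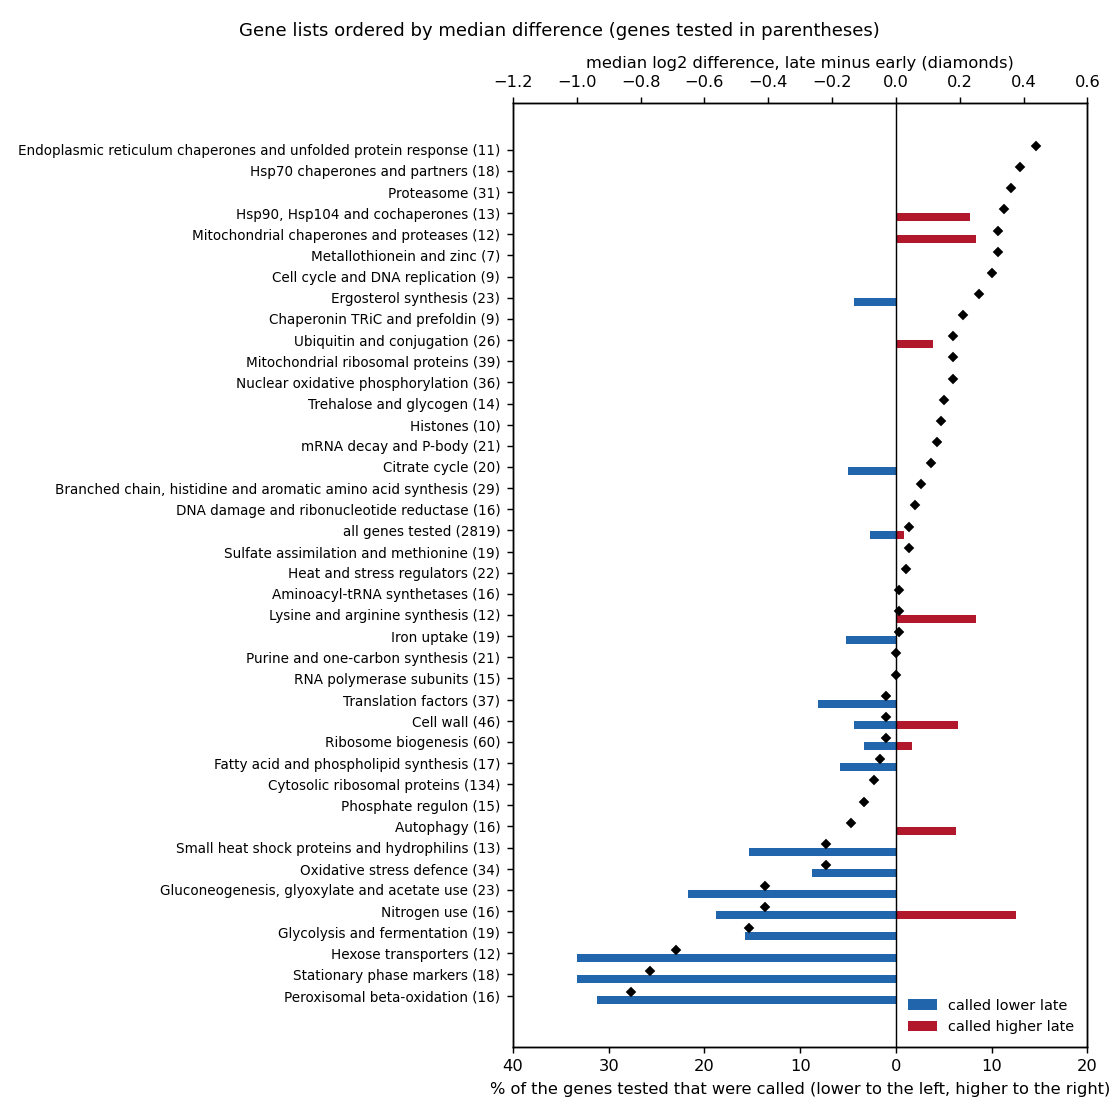
For 40 gene lists and all genes tested, ordered by median: bars give the percentage of tested genes called lower (blue, left) or higher (red, right) late, and diamonds the median log2 difference on the upper axis, with the number tested in parentheses. The peroxisomal, stationary phase and hexose transporter lists stand at the bottom (medians -0.83, -0.77 and -0.69), and the chaperone and proteasome lists at the top with few calls.

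The same hours were available from a course in which stationary cells of this strain received menadione, an oxidant (50 µM, 16 arrays at 1 to 2.5 h and 6.5 to 8 h on the same array design). Of 2681 genes with enough values in both courses, the change differed between the courses, at an adjusted p under 0.05 and 2-fold, for 686 (25.6%), with 464 more positive in the upshift (17.3%) and 222 more negative (8.28%). Of the 22 upshift rises tested here, 5 were more positive in the upshift than in the menadione course. Of the 73 upshift falls tested here, 45 were more negative in the upshift than in the menadione course and 4 were more positive. Rises and falls were picked by their upshift change, which is part of the term, so a term of the same sign was favoured in advance. Of these 73, 18 were also called lower with menadione and 10 were called higher, against 17.1% and 7.80% of all genes tested with menadione.

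Among the falls, SPG1 and CTA1 had the most negative terms. SPG1 rose by 2.70 with menadione, and its change differed between the courses by -4.22 ± 0.31. CTA1 fell by 1.74 in the upshift and rose by 2.07 with menadione, a difference of -3.81 ± 0.22 (adjusted p = 1.42e-14). ACS1 (-3.63), ADY2 (-3.49), GPB2, an inhibitor of the Ras and protein kinase A pathway (-3.22), and RGI2 (-3.13) also fell in the upshift and rose with menadione. The hydrophilins GRE1 and SIP18 were at medians of -1.51 and -0.92 already in the early menadione arrays, and their differences were -2.59 ± 0.25 and -2.38 ± 0.29. GDH3, HXT2, GLN1 and HXT6 were called lower in both courses, and for these 4 genes the difference between courses did not pass the threshold (-0.68 ± 0.29, 0.89 ± 0.49, 0.81 ± 0.62 and 0.22 ± 0.28). Of the 18 stationary phase markers, 14 were more negative in the upshift, against 222 of all 2681 genes (8.28%). The list median was -0.77 in the upshift and 0.91 with menadione, so the changes of both courses entered these terms. For the 6 markers called lower in the upshift, a negative term was favoured in advance.

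Several stress genes that were not called in the upshift rose over the same hours with menadione, from a lower level. SSA3 went from a median of -1.98 to 1.68 with menadione, and the difference between courses was -3.43 ± 0.34. HSP12 gave -3.49 ± 0.37, HSP42 -2.23 ± 0.33, HSP26 -2.08 ± 0.26 and HSP82 -1.80 ± 0.32. SSA4 was not called in either course (0.82 ± 0.63). HSP104 rose in both, by 1.15 and 2.31, and the rise was smaller in the upshift (adjusted p = 0.00439). PIM1 rose by 1.32 and 1.35, a difference of -0.03 ± 0.47.

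Of the 464 positive terms, 366 belonged to genes that fell with menadione. Of 134 cytosolic ribosomal protein genes, 124 were more positive in the upshift (92.5%, against 17.3% of all genes), with list medians of -0.07 in the upshift and -2.50 with menadione. RPS24B differed by 3.93 ± 0.29 and RPL8A by 3.79 ± 0.64. TKL1, a transketolase, differed by 6.13 ± 0.50, YEF3, elongation factor 3, by 4.33 ± 0.94, and NDE1, an NADH dehydrogenase of the outer face of the inner mitochondrial membrane, by 3.86 ± 0.40. None of these 5 genes was called between the upshift windows. The early menadione arrays spread widely for YEF3 (-4.62 to 3.75, median -2.78) and RPL8A (-4.71 to 1.28, median -3.37), so the size of their terms is uncertain. Ribosomal protein genes thus stood far below the typical gene in both upshift windows and differed little between them.

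**Figure D4:**
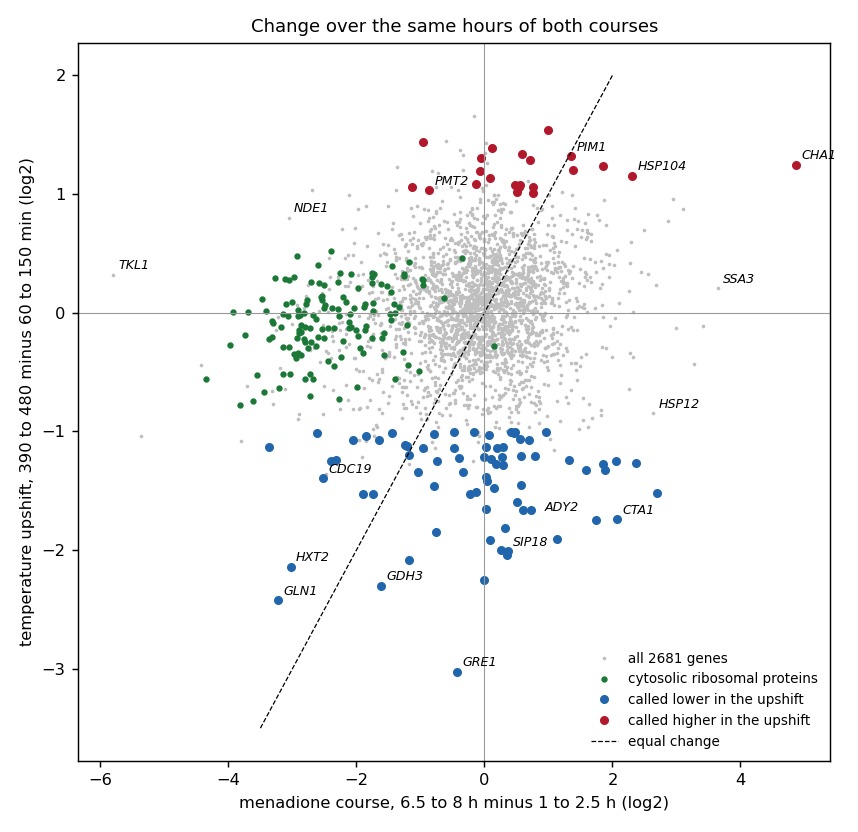
Late minus early difference (log2) of 2681 genes in the menadione course (horizontal axis) and in the temperature upshift (vertical axis), with genes called in the upshift in blue and red and cytosolic ribosomal protein genes in green; the dashed line marks equal change. CTA1 and ADY2 lie to the lower right, GRE1 lowest near the middle, and the ribosomal protein genes to the left near 0 on the vertical axis.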

How the data were processed

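Sample RNA of stationary phase yeast was compared with a common reference on spotted arrays of 6819 probes. The files deposited by the authors hold the background-corrected Cy5 signal over Cy3 as a linear ratio, in which some values lie below 0. Whether a normalization to spiked RNA is in them is not stated, and intensities were not used here, so the depth is unknown. Ratios at or below 0 and the marker value 100000 were treated as missing. The remainder was taken to log2, probes of a gene were averaged (33 of 5691 genes had several probes, 12 of them 17 each), and each array was centred on its median. Probe names came from the platform annotation (5904 probes with 1 gene each, 915 unnamed) and were updated through RefSeq R64 (5686 genes matched). 0 columns lacked a sample.

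Genes measured in 80% or more of the 16 arrays and in 6 or more of each window were fitted with limma 3.58.1 in R 4.3.3 (1 mean per window, eBayes, Benjamini-Hochberg over all genes tested). The test had been planned for these log2 ratios. The interaction used 16 further arrays of the menadione course. Array levels were compared with SciPy 1.17.1. The fits were tested on simulated data. Figures were drawn with Matplotlib 3.10.9.

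The members and the 41 gene lists were chosen with earlier results of these data known. Values are given for the 10 largest falls and rises among called genes with complete, non-overlapping values (1 rise met this), the 2 largest called members of each list in each direction, 27 fixed stress and carbon genes, and the 5 largest interaction terms each way among genes with a value in all 32 arrays. Other list members, SPG1's interaction term among them, were named after their values were seen. Alternatives were other centrings, filters, blocks and windows, and replicates and times left out. Probe means taken out and the sparsest array left out were chosen after seeing the data. Columns of the other array design were not used here, and the arrays at 30 and 180 to 360 min served for description only.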

Additional observations from a re-analysis of the deposited data

Results flagged for a closer look

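Among 140 sets of window values examined, 15 held 1 array far from the others of its window. Chance was taken to give about 1 in 20, but the sets share arrays and are not independent, so the rates cannot be compared. The array at 450 min, replicate 1, which had the fewest usable genes, was the outlying one for PIM1 late (2.55), CTA1 late (1.12), FIT3 late (-2.28), HSC82 late (2.92), HSP42 late (7.56) and SSC1 late (3.87). The 150 min array of replicate 1 was outlying for BOP2 early (2.62), GOR1 early (2.34) and TSL1 early (3.95). The 150 min array of replicate 2 was outlying for UTP5 early (-3.00) and PGK1 early (-5.16). The others were CIT3 late (-1.14), CTS1 late (-5.36), and HSP12 both early (2.28) and late (0.76).

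The change over the same hours differed between the upshift and the menadione course, by limma's interaction test, for 45 of the 70 named genes. Over all 2681 genes tested the share was 25.6%. Some genes were named for a large term and many for their upshift change, which is part of the term. The 45 are therefore a list, and their share cannot be set against that of all genes. Falls with a more negative term in the upshift were GRE1 (-2.59), SIP18 (-2.38), SPS100 (-2.26), BOP2 (-2.0), MSC1 (-3.03), PAH1 (-2.14), ADY2 (-3.49), GOR1 (-2.27), CTA1 (-3.81), GTT1 (-1.31), ADH2 (-2.39), CIT3 (-1.09), FOX2 (-2.02), CTS1 (-1.42), ACS1 (-3.63), GPB2 (-3.22) and RGI2 (-3.13). The falls RLI1 (1.60) and CDC19 (1.12) had positive terms. Among the rises, PMT2 (1.90), GAT1 (1.28), EGT2 (1.27) and UTR2 (2.19) had positive terms, and HSP104 (-1.15) and CHA1 (-3.62) negative ones. Stress genes that were not called in the upshift were HSP82 (-1.80), HSC82 (-1.20), SSA1 (-1.39), SSA2 (-1.69), SSA3 (-3.43), HSP26 (-2.08), HSP42 (-2.23), HSP12 (-3.49), HSP78 (-1.55), KAR2 (-1.06), UBI4 (-1.19), CTT1 (-2.70), SOD1 (-1.35), SNZ1 (-1.30) and PCK1 (-1.92). The largest positive terms were TKL1 (6.13), YEF3 (4.33), RPS24B (3.93), NDE1 (3.86) and RPL8A (3.79).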

How the results depend on the processing

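The direction of all 99 called genes was kept in every one of 25 alternatives that gave the gene a value, and 20 of the 76 falls were called in all that did, GRE1, SIP18, GDH3, CTA1, HXT2 and SPS100 among them. No rise was. The alternatives reuse the arrays on which the genes were called, so a kept direction was favoured in advance. The number of rises (23) became 0 without centring, 11 with a value in all 16 arrays (1483 genes tested), 36 with a mean for each time, 14 with duplicates averaged, 72 with no fold requirement, 47 for 420 to 480 against 60 to 120 min, and 51 with 30 min in the early window. Leaving out the arrays of 1 time gave 12 rises (60 min), 14 (90 min), 35 (150 min) or 13 (480 min), and 17 to 33 for the other times. The number of falls (76) became 29 without centring, 151 with no fold requirement and 115 for the narrower windows. Leaving out a replicate label gave 2 to 4 rises and 30 to 45 falls. Without replicate 1, 42 of the 76 falls and 0 rises remained, and GLN1, HYP2, PGK1, UTP5 and FIT3 were among those lost. Without replicate 2, 29 falls and 1 rise remained, and ADY2, BOP2, CDC19, CIT3 and RGI2 were among those lost. The array median then differed by -0.285 to 0.337 and the usable genes by -320.5 to 211.5, with no exact p under 0.0571. Positive and negative interaction terms (464 and 222) became 269 and 118 without centring and 259 and 106 with a value in all 32 arrays (1116 tested). They became 332 to 383 and 161 to 196 without a replicate label. Causes were not tested.

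The replicate labels deviated together in 19 of 28 pairs of times (r from -0.02 to 0.48), counting r over 0.1. A pairing was taken only where every pair passed, so the block was kept as an alternative. With the replicate block 26 rises and 76 falls passed, with 22 of the 23 and 72 of the 76 among them, and 488 and 231 interaction terms. The successive times of a window are not independent cultures, and few arrays limit the precision.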

Other observations

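Some falls lay next to each other on the chromosome. Of 1603 pairs of neighbouring genes on the array with both tested, 9 pairs fell together and no pair rose together. The run ADY2, ADP1, PGK1 and POL4 (differences of -1.75, -1.28, -1.24 and -1.23) fell, although ADY2 and ADP1 were above the typical gene early and PGK1 and POL4 far below it. CHP1 (-2.04), MMT2 (-1.42) and GRE1 (-3.02) formed a run. The other pairs were HXT7 with HXT6 and HXT6 with HXT3, HYR1 (-1.22) with GTT1 (-1.53), and SPS100 (-2.0) with YHR140W (-1.65). The files carry no probe coordinates, and signal shared between neighbours was not tested.

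A total of 7 genes had a value in at least 7 early and at most 2 late arrays (CFT1, CWC2, SHH4, SMN1, SNT309, SUL2 and SWC5), and 0 genes showed the reverse. No level was given for them late, and they were not tested.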
